A study of Homo sapiens with 8 samples.

Results

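The nucleoporin genes TPR and NUP62 held 19 of the 2499 NUP98-binding regions listed for human embryonic stem cells (ESCs), and none of the 3205 regions listed for neural progenitor cells (NeuPCs). A region was counted for a gene if 1 bp or more of it fell in the hg19 interval of TPR (chromosome 1, 186280784 to 186344457) or of NUP62 (chromosome 19, 50410082 to 50432988). TPR held 18 of these regions and NUP62 held 1. The paper reports that most NUP98 sites of ESCs were absent from its other cell types. The lack of NeuPC regions was therefore not read as particular to these genes. The genes were chosen by the density and the scores of their regions in the ESC list, so the numbers, spacing and scores below describe that choice and were not tested.

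ESCs were the line HUES6 in feeder-free culture, and NeuPCs were derived from HUES6 through embryoid bodies and rosettes and grown with FGF2. Both were fixed in 1% formaldehyde for 10 min. NUP98 was pulled down from each with 1 rabbit polyclonal antibody (NUP98Ab1), and normal rabbit IgG served as the control pull-down. There was 1 library for each cell type and antibody, and 1 list of regions for each cell type, which leaves no spread between replicates to give as an error. The lists give positions and scores but no reads. The study gives the read numbers of its libraries, which were not used here. The signal of the IgG libraries at TPR and NUP62 was not analysed here, and the identity of the cells could not be checked against marker genes. The IMR90 fibroblast list is not in hg19 coordinates and was left out.

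Nuclear pore complexes are built from nucleoporins and carry molecules between nucleus and cytoplasm. NUP98 is a nucleoporin rich in phenylalanine-glycine repeats that moves on and off the pore and is also found inside the nucleus. TPR is a long coiled-coil protein that forms the filaments of the nuclear basket, on the nuclear side of the pore. NUP62 lines the central channel of the pore together with NUP54 and NUP58. TPR is a large gene of many exons, whereas the coding sequence of NUP62 lies in a single exon. RefSeq places the start of both genes on the minus strand, so the low end of each interval is the 3' end.

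The regions in TPR lay as separate blocks in the 3' part of the gene, and the 5' side held none. The first began 2323 bp from the 3' end of the gene, and the last ended 23733 bp from it. This span of 21410 bp (186283107 to 186304516) made up 33.6% of the 63674-bp gene. The remaining 39941 bp on the 5' side, 62.7% of the gene with the promoter end, held no region in either list. Within the span the 18 regions covered 2871 bp, or 13.4%. All 18 lay wholly inside the gene.

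**Figure D1:**
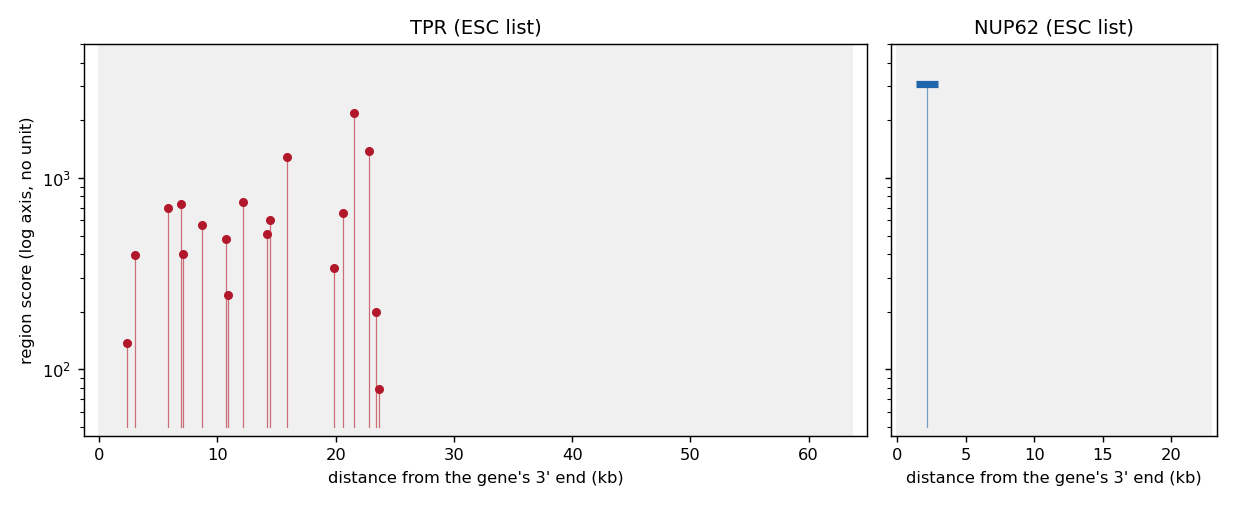
Regions of the ESC list in TPR and NUP62, placed by distance from the 3' end of the gene (kb, the gene shaded) and by score (log axis, no unit). Each stem ends at the score of 1 region, with a dot at the middle of the region for TPR and a bar drawn to the length of the region for NUP62. The 18 TPR regions end 23733 bp from the 3' end, and the single NUP62 region lies between 1347 and 2988 bp from it.

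The score is the value that the authors' peak caller gave to a region. The lists name the caller as MACS and state no unit. The lowest score was 50.09 in the ESC list and 50.01 in the NeuPC list, and the median was 54.48 and 59.38. Scores were therefore used to rank and describe regions, with no ratio between them.

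Seen from the 3' end, the TPR regions formed 3 stretches when those up to 2 kb apart were joined. The stretch nearest the 3' end held 2 regions, of 57 and 133 bp, with scores of 137.29 and 397.61. The middle stretch held 10 regions over 10238 bp (186286559 to 186296796). The stretch nearest the 5' side held 6 regions over 3940 bp (186300577 to 186304516). The widest gap in the group, 3780 bp, separated the middle stretch from the last.

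In the middle stretch the 3 regions closest to the 3' end scored 695.84 (177 bp), 727.39 (245 bp) and 402.63 (104 bp). The next 3 scored 570.66 (162 bp), 480.21 (98 bp) and 245.25 (164 bp). These 6 lay within 5775 to 11010 bp of the 3' end, and the lowest of them was above every ESC score outside TPR and NUP62. The other 4 scored 750.07 (228 bp), 511.03 (100 bp), 603.02 (215 bp) and 1283.25 (207 bp), so the highest score of the middle stretch stood at its 5' edge.

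The stretch nearest the 5' side held both the highest and the lowest score in TPR. Its regions scored, in order away from the 3' end, 336.71 (153 bp), 651.98 (150 bp), 2177.08 (338 bp), 1386.79 (215 bp), 199.36 (68 bp) and 79.04 (57 bp). The region at 2177.08 (186302193 to 186302530) was the longest of the 18. The scores on its 5' side fell off within 3 regions to 79.04, the last before the part of TPR that held none.

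Counted in windows of 5 kb from the 3' end, the first 5 windows held 2, 4, 5, 2 and 5 regions, and the other 8 windows held none. The covered share of these first 5 windows was 3.80%, 13.8%, 16.1%, 7.20% and 16.6%. The covered share was thus highest in the last of these 5 windows and 0 in the next. The step at 25 kb is an edge of the windows, since the last region ended 23733 bp from the 3' end. The last regions before it were short, with 68 bp (score 199.36) and 57 bp (score 79.04). Score did not follow position along the group, with a Spearman correlation of 0.10 between distance from the 3' end and score over the 18 regions. These regions come from 1 library and 1 locus, and the correlation is a description.

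The spacing of the TPR regions was far below the median spacing of other regions on chromosome 1. The 17 gaps between neighbouring TPR regions ran from 66 to 3780 bp, with a median of 814 bp. Of these gaps, 4 were under 200 bp and 10 were under 1000 bp. With the TPR regions left out, the 196 gaps between ESC regions on chromosome 1 had a median of 788096 bp and a minimum of 1599 bp, and 1 of them was under 4000 bp. In the NeuPC list, 9 of the 280 gaps on chromosome 1 were under 4000 bp and the median was 557102 bp. Of these NeuPC gaps, 7 were under 1000 bp and 5 were under 200 bp, with a minimum of 24 bp. Gaps as small as those of TPR were thus also found in the NeuPC list. Dense spacing was one of the reasons for which TPR was picked, so no test was made of the spacing.

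**Figure D2:**
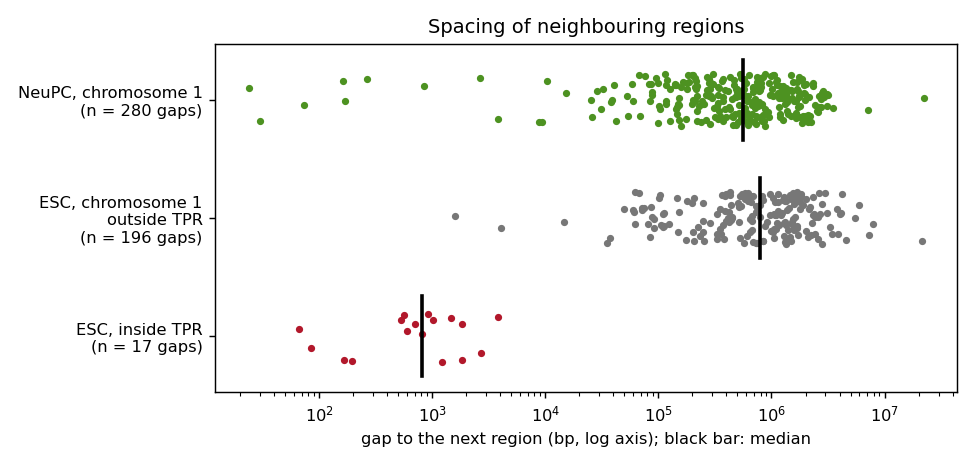
Gaps between neighbouring regions (bp, log axis) inside TPR in the ESC list, on chromosome 1 of the ESC list with the TPR regions left out, and on chromosome 1 of the NeuPC list, with 1 point per gap and a black bar at the median. All 17 TPR gaps are at most 3780 bp, while the medians of the other sets are 788096 and 557102 bp.

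The size of the TPR group depended on the joining distance. With ESC regions joined over distances of up to 10 kb, the TPR group held all 18 regions and the next largest ESC group held 3 with scores of at most 59.84. The largest NeuPC group under the same joining held 7 regions, at another place on chromosome 1 (565018 to 570301). Joined within 1 kb, the TPR regions made 8 groups, of which the largest held the 6 regions nearest the 5' side, while the NeuPC group still held 7.

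NUP62 held a single region, on chromosome 19 from 50411429 to 50413069, with a length of 1641 bp. It began 1347 bp from the 3' end of the gene and ended 2988 bp from it, and covered 7.16% of the 22907-bp gene. The 19919 bp between it and the 5' end of the gene, 87.0% of the gene, held no region in either list. Its score of 3100 was the highest of both lists, and no other region reached that value. The list does not say whether 3100 is a ceiling of the caller, so the score of NUP62 cannot be set against that of TPR beyond its rank.

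The genes shared the position of their regions toward the 3' end and differed in how the regions were laid out. In TPR the signal was split into 18 blocks with a median length of 157.5 bp, and in NUP62 it was 1 block, 10.4 times as long. The covered length was 2871 bp in TPR and 1641 bp in NUP62. In both genes the regions stopped short of the 3' end itself, by 2323 bp in TPR and 1347 bp in NUP62. The 5' part without a region was 39941 bp in TPR and 19919 bp in NUP62.

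The lengths of the TPR blocks were spread more widely than those of other ESC regions. The middle 50% of the 18 lengths ran from 101 to 213 bp, a width of 112 bp, and that of the 2480 ESC regions outside TPR and NUP62 from 112 to 127 bp, a width of 15 bp. The middle 90% of the lengths outside these genes ran from 91 to 163 bp. Of the TPR regions, 8 were longer than this range and 3 were shorter. The 11 other ESC regions that scored 100 or more ran from 53 to 4410 bp, and none lay within 91 to 163 bp. Among high-scoring ESC regions a wide spread of lengths was thus not particular to TPR. Lengths of at least 200 bp were found in 6 of 18 TPR regions and in 45 of 2480 other ESC regions. Lengths of 57 bp or less were found in 2 TPR regions and in 6 other ESC regions.

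Length and score went together in TPR and not in the rest of the list taken as a whole. The 6 TPR regions of at least 200 bp scored 603.02 to 2177.08, and the 12 shorter ones scored 79.04 to 695.84, so the ranges overlapped. The Spearman correlation of length and score was 0.84 over the 18 TPR regions and 0.80 without the 2 that scored highest. Over the 2480 ESC regions outside TPR and NUP62 it was -0.08, and over the 3205 NeuPC regions it was -0.16. Of these 2480 regions only 11 scored 100 or more, and their median of 54.4 was close to their lowest score of 50.09. The value of -0.08 thus mostly describes regions near the lowest score. No correlation was taken over the high-scoring regions elsewhere alone, so the relation cannot be called particular to TPR. Regions of a list share the library and the threshold of the caller, and regions of TPR also share the locus, so these values are descriptions without a test.

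**Figure D3:**
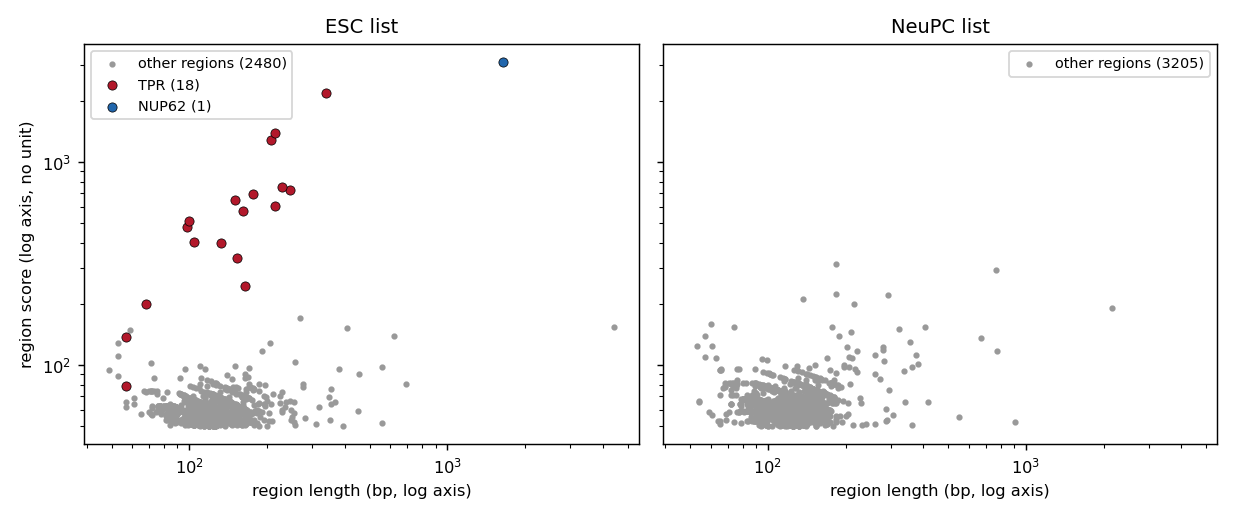
Region length (bp, log axis) against region score (log axis, no unit) in the ESC list and the NeuPC list, with 1 point per region and the regions of TPR and NUP62 coloured. The TPR regions rise from 79.04 at 57 bp to 2177.08 at 338 bp, NUP62 stands at 1641 bp and 3100, and the other ESC regions reach at most 170.88.

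A block length by itself does not tell an exon from a short binding site. Of the other ESC regions, 2461 of 2480 had lengths within the 57 to 338 bp of the TPR blocks, although 11 of the 18 TPR lengths were outside the middle 90% of the others. The NUP62 block was longer than 338 bp. The only ESC region longer than the NUP62 block, 4410 bp on chromosome 1 (142535447 to 142539856), had a score of 153.79. Exon positions in hg19 and the sequence under the regions were not used here. Whether the blocks of TPR and the block of NUP62 coincide with exons, as copies of a transcript would, or are separate sites of binding on the chromosome, was not tested.

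The scores placed both genes at the head of the ESC list. Scores of 100 or more belonged to 29 of the 2499 ESC regions (1.16%), of which 17 lay in TPR and 1 in NUP62. This score chose the genes, and nothing is read from the count. The 11 regions elsewhere were spread over 10 chromosomes and contigs and scored at most 170.88, the value of a 269-bp region on chromosome 5 (14347177 to 14347445). Of the TPR regions, 16 scored above that value, and they were 16 of the 17 highest in the list. The other 2 lay at the edges of the group, with 137.29 at the 3' side and 79.04 at the 5' side, and ranked 23 and 61 in the list.

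The median score in TPR was 541, against 54.4 for the ESC regions outside TPR and NUP62. In regions of at least 200 bp the median was 1017 for the 6 of TPR and 64.7 for the 45 others. In shorter regions it was 400.1 for the 12 of TPR and 54.3 for the 2435 others. Scores chose the genes, so these medians are descriptions and nothing is read from their difference.

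In the NeuPC list 35 of the 3205 regions (1.09%) reached a score of 100, and none of them lay in TPR or NUP62. The highest NeuPC score was 314.4, on chromosome 9 (100174109 to 100174291). The NUP62 region and 14 of the 18 TPR regions scored above this value. Scores of the separate lists may rest on different depths, so this comparison ranks values and measures no difference in binding.

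**Figure D4:**
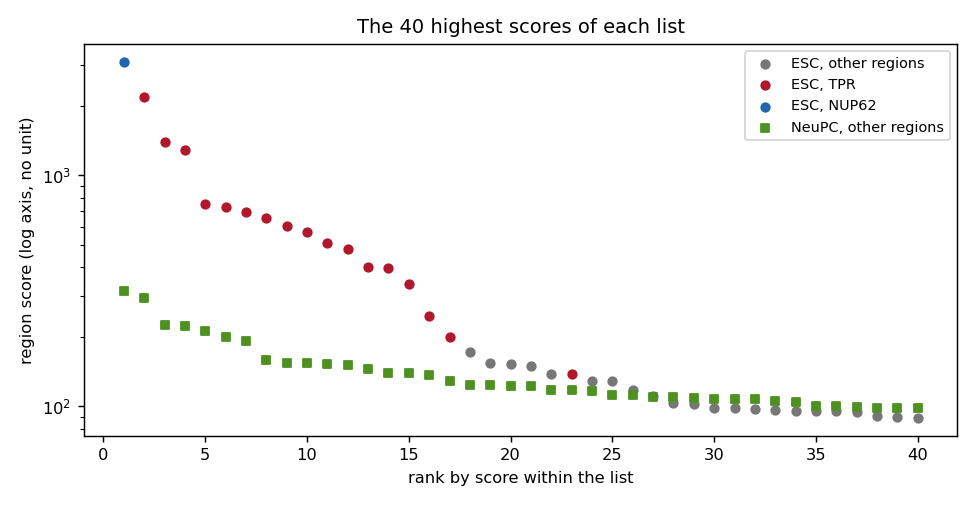
The 40 highest scores of the ESC list (circles) and of the NeuPC list (squares), by rank within the list and on a log axis with no unit. The NUP62 region (3100) leads the ESC list, TPR regions follow from 2177.08 down to 199.36, and from rank 18 on the scores are at most 170.88, while the NeuPC list starts at 314.4.

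The regions that flanked TPR scored low. The nearest ESC region below the gene lay 12880 bp away and had a length of 99 bp and a score of 57.52. The nearest above it lay 4124501 bp away, with a score of 50.91. Both scores were below the lowest of the 18 TPR regions. The nearest NeuPC regions lay 244984 bp below the gene (score 65.27) and 231038 bp above it (score 67.07).

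Around NUP62 the nearest ESC regions lay 1678032 bp below the gene (score 53.49) and 25271 bp above it (score 55.3). The nearest NeuPC regions lay 291170 bp below it (score 59.38) and 207283 bp above it (score 51.88). Neither gene thus had a region of score 100 beside it in either list. On chromosome 1 of the NeuPC list, 254 of the 280 gaps (90.7%) were longer than the whole of TPR. A gene of this size without a NeuPC region is therefore common in that list, and the absence of a NeuPC region from TPR or NUP62 was not tested as a difference between the cell types.

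Other genes share parts of these intervals in the RefSeq table, which is in GRCh38.p14 and was used for names only. PRG4, which encodes the joint lubricant lubricin, overlaps TPR, and so does the small RNA pseudogene RNU6-1240P. IL4I1, which encodes an amino acid oxidase, and ATF5, which encodes a transcription factor, overlap NUP62. Whether the regions lie in the shared parts was not analysed here, because the table is not in the build of the lists. The other nucleoporin genes were not placed in the lists for the same reason.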

How the data were processed

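NUP98 ChIP-Seq and control IgG libraries from ESCs and NeuPCs were sequenced, mapped and turned into region lists by the authors. Calling with the Audic-Claverie algorithm in Genomatix is described in the methods, whereas the ESC and NeuPC lists name MACS. The version, the parameters and the control library are not given in the sources used here. The submitters' processing notes name hg19 (GRCh37). The deposited score of each region has no stated unit and was used as deposited.

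Starts were converted to positions counted from 1. A region belonged to TPR or NUP62 when it overlapped the gene interval by at least 1 bp. Gaps were the bases between the end of a region and the start of the next. The functions for overlaps, gaps and joining were tested on simulated lists with known answers. With 1 list per cell type no test was made. The genes named were TPR and NUP62 with the genes that share their intervals, and the other nucleoporin genes were to be named only with hg19 gene positions. The genes, the limits and the summaries were chosen with earlier results of these data known. Alternatives were a gene interval widened by 10 kb, regions wholly inside it, the 50% of the list with the highest score, regions within 1 kb merged and scores of at least 100 only. The IMR90 list was not used. Strand came from the RefSeq promoter table (GRCh38.p14). Python 3.11.15, pandas 2.3.3, numpy 2.4.6 and scipy 1.17.1 were used.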

Additional observations from a re-analysis of the deposited data

How the results depend on the processing

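Of 28 comparisons with an alternative, 23 left the value within 1.5 times of that reported. The counts of regions in NUP62 (1 in ESCs, 0 in NeuPCs) and of NeuPC regions in TPR (0) were the same under the 4 alternatives run for each. A count of 0 could rise only with the widened gene interval, since the other alternatives only remove or merge regions. The filter on the highest scores had to keep the TPR and NUP62 regions, the lowest of which ranked 61 of 2499 in the ESC list. Much of the 23 of 28 was thus fixed by construction and is not read as robustness. Merging regions within 1 kb changed TPR in ESCs by construction, to 8 regions with a median length of 413 bp and a median gap of 1845 bp, from 18 regions, 157.5 bp and 814 bp. The largest ESC group, of 18 regions with joining up to 10 kb, held 10 regions with joining up to 2 kb and 6 with joining up to 1 kb, both distances chosen after seeing the data. No paired analysis was possible because there was only 1 library for each cell type and antibody. The read numbers that the study gives for its libraries were not used here, so the lists were not compared at equal depth.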
